A study of Homo sapiens with 20 samples.

Results

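Chromosome 18 held 1427 of the 54563 consensus peaks in which FRA1 and IgG Cut&Run counts were deposited for A375 and 1205Lu cells. The peaks were chosen by the chromosome in their name, with no filter on counts, and all 1427 were kept. The chromosome was singled out with earlier results of these data known, because its counts differed between the lines, so the line difference of its Cut&Run counts, summed or peak by peak, is given as a description. Calls of peaks come from a fit over the whole table, and no p-value is printed for a peak. The question was how much of that difference is already present in the IgG control and how much is left for FRA1 once IgG is taken into account. The widest stretch without a peak, 6014311 bp from chr18:14986521 to chr18:21000832 (GRCh38), separated 361 peaks on the short arm (18p) from 1066 peaks on the long arm (18q).

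A375 and 1205Lu are established lines labelled as human melanoma cells, each a single line rather than a panel. Cut&Run was run on both with an antibody against FRA1 in 3 samples per line and with IgG in 1 sample per line, and the labels give no siRNA for these cells. RNA was sequenced from both lines after a non-targeting siRNA (si-NT) or siRNAs against FRA1 (si-FRA1), with 3 samples in each of the 4 groups. The labels name neither separate cultures nor paired samples, so p-values measure only the spread between these samples, which may be technical. In this text a Cut&Run count is a read counted in a peak, and a share is the percentage of a library's counts in all peaks.

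FRA1, encoded by FOSL1, is a member of the FOS family that pairs with JUN proteins to form AP-1 and binds the sequence TGACTCA, whose reverse complement is TGAGTCA. In Cut&Run a tethered nuclease releases DNA around the antibody. The IgG control collects fragments that are released without a specific target, and its counts follow the amount of DNA and how open the chromatin is. Cancer lines often carry extra or missing chromosome arms, and a gain or loss changes FRA1 and IgG counts together. The number of DNA copies was not measured here. Copy number and accessibility of an arm cannot be told apart from IgG counts alone.

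The 4 libraries of A375 held 383994 (IgG) to 5316527 counts in peaks and those of 1205Lu 314569 (IgG) to 897407, so the 1205Lu FRA1 libraries were far shallower. 1205Lu FRA1 replicates 2 and 3 were close to what sampling noise alone gives. The chi-square divided by its degrees of freedom was 1.06 over the 18088 peaks in which the pair had 20 counts or more, and 1.01 over the 8327 peaks with 50 or more. They were averaged to 1 value (n = 2) in means and SDs and kept apart in the edgeR fit. FOSL1 RNA, in counts per 1e6 counts (CPM), lay between 398 and 414 in A375 si-NT samples and between 25.2 and 25.4 after silencing, and between 489 and 506 and between 65.6 and 71.6 in 1205Lu (log2 fold changes 4.01 and 2.84, edgeR adjusted p 6.0e-30 and 1.0e-22). The pigment cell genes differed between the lines in both directions. SOX10 lay between 31.4 and 43.3 CPM in A375 and between 786 and 954 CPM in 1205Lu, and S100B between 0.810 and 1.84 and between 413 and 446 CPM. MITF lay between 48.8 and 65.9 CPM in A375 and between 2.80 and 4.10 CPM in 1205Lu, and the differentiation marker MLANA was at 0.513 CPM or less in both.

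Stretches of 5 peaks are printed first, as examples of named peaks that hold the FOS/JUN sequence and were present in both lines or nearly absent from a line. They do not carry the difference of the arms, which spans the peaks. The bases are from the GRCh38 reference, on the plus strand, and capitals mark the FOS/JUN sequence nearest to the middle of the peak. The peak in DLGAP1 (printed bases chr18:3624068-3624188) had the most FRA1 counts among peaks that stood over IgG in both lines. The peak near an internal start of PTPRM (chr18:8116537-8116657) also stood over IgG in both lines. A peak in an intron of PTPRM (chr18:7579312-7579432) and the intergenic peak whose nearest protein-coding start is NETO1 (chr18:73102095-73102215) had no FRA1 count in 1205Lu. The intronic peak whose nearest protein-coding start is GALR1 (chr18:77522268-77522388) had almost none in A375.
DLGAP1 peak: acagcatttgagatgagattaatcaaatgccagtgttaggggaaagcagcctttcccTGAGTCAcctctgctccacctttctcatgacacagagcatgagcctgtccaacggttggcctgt
PTPRM peak in both lines: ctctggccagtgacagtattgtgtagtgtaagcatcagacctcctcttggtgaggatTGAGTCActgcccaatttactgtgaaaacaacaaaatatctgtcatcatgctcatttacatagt
PTPRM peak of A375: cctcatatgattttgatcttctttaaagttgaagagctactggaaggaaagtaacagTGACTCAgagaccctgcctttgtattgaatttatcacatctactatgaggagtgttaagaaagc
NETO1 side peak of A375: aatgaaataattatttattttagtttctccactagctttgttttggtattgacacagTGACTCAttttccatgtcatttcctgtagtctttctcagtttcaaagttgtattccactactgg
GALR1 side peak of 1205Lu: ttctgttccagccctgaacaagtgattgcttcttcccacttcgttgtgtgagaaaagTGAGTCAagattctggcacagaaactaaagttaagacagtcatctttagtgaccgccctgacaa

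The peaks of both arms were like the consensus peaks in width and FOS/JUN sequence, while 18q had fewer promoter and more intergenic peaks. Their width ranged from 294 to 4044 bp with a median of 714 bp, which is also the median over all peaks. A FOS/JUN sequence (TGACTCA on either strand) lay within 100 bp of the peak centre in 29.6% of the 18p peaks (Wilson 95% interval 25.2 to 34.5%), in 320 of the 1066 18q peaks (27.3 to 32.8%) and in 28.6% of all peaks. A transcription start lay within 3 kb of 131 18p peaks (36.3%) and 268 18q peaks (25.1%), beside 32.3% of all peaks. Of the other 18p peaks, 132 were intronic, 8 exonic and 90 intergenic, and of the other 18q peaks 366, 32 and 400. The intergenic share was 24.9% on 18p and 37.5% on 18q (Wilson 95% interval 34.7 to 40.5%), beside 26.5% of all peaks. The median GC content was 42.6% on 18p and 41.3% on 18q, beside 43.9% over all peaks.

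On 18p the FRA1 and IgG libraries gave nearly the same share within a line and very different shares between the lines. The A375 FRA1 libraries had 0.942%, 0.947% and 0.952% of their counts in 18p peaks, and the A375 IgG library had 0.947% (3637 counts, exact 95% interval 0.917 to 0.978%). The 1205Lu FRA1 libraries had 0.269%, 0.270% and 0.277%, and the 1205Lu IgG library had 0.282% (888 counts, 0.264 to 0.301%). The libraries of the 2 lines did not overlap, and within each line no FRA1 library lay outside the interval of IgG. The share was thus 3.36 times higher in A375 for IgG (95% interval 3.12 to 3.61) and 3.49 times higher for FRA1. On the log2 scale these ratios are 1.75 (1.64 to 1.85) and 1.8 (SD of the replicates 0.019). FRA1 minus IgG came to 0.057, and the counting error of IgG alone gives -0.051 to 0.16 around it. This holds for summed counts. As a median over peaks, with 1 added to each count, the difference was 0.618 on 18p and 0.628 on 18q. Intervals here cover counting error only, since each line had 1 IgG library.

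On 18q the lines differed less. The A375 FRA1 libraries had 1.94%, 1.95% and 1.93% of their counts in 18q peaks and the A375 IgG library 1.85% (1.81 to 1.89%). The 1205Lu FRA1 libraries had 1.36%, 1.34% and 1.35% and the IgG library 1.4% (1.36 to 1.44%). All 3 A375 FRA1 libraries lay above the interval of the A375 IgG library, whereas the 1205Lu FRA1 libraries lay at or below the lower bound of theirs. The ratio was 1.32 for IgG (1.27 to 1.37) and 1.43 for FRA1, and FRA1 minus IgG was 0.12 on the log2 scale (0.069 to 0.18 from the counting error of IgG).

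**Figure D1:**
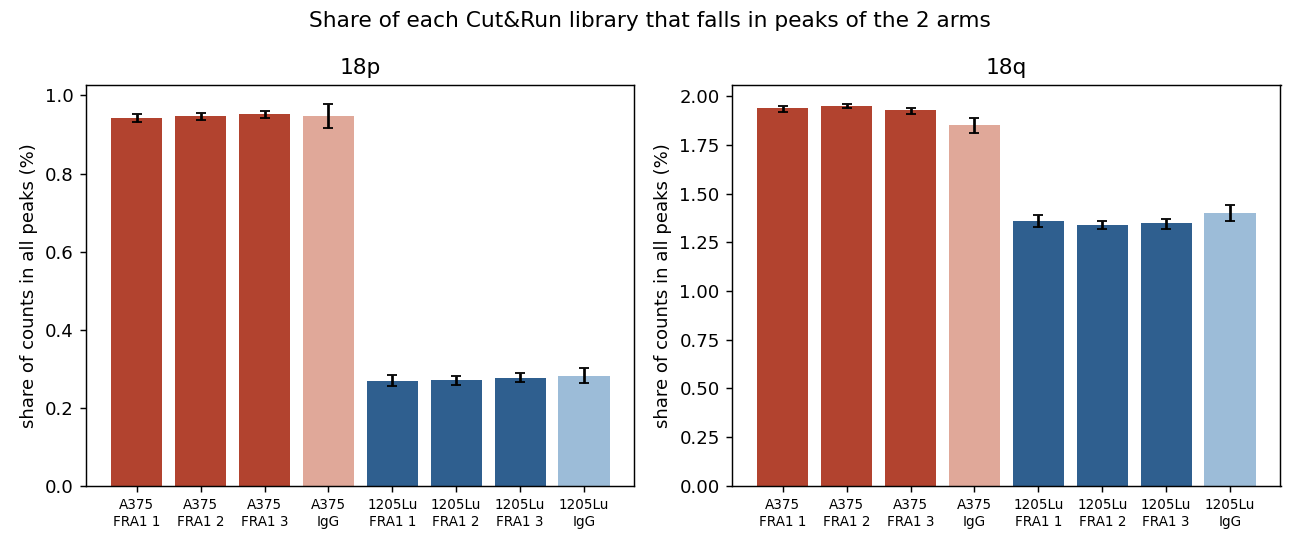
Bars give the share of each Cut&Run library's peak counts, in percent, that fell on 18p (left) and 18q (right), with exact 95% binomial intervals. Within a line the FRA1 bars lie at the height of the IgG bar on 18p, near 0.95% in A375 and between 0.269% and 0.282% in 1205Lu.

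Relative to the length of the peaks, the 2 lines departed from the average peak in opposite directions on 18p. The density of IgG counts per base of 18p peak was 1.33 times that over all peaks in A375 and 0.397 times in 1205Lu, and the FRA1 densities were 1.32 to 1.34 and 0.378 to 0.390. On 18q the IgG densities were 0.952 and 0.723. A 1205Lu IgG count of 0 was found in 54 of the 361 18p peaks, beside 1509 of all 54563 peaks, and the median 18p peak had 2 IgG counts in 1205Lu and 8 in A375. IgG could therefore be read over an arm or a window but hardly in a single peak.

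Set beside the other autosomes, chromosome 18 had the highest IgG ratio of the 22 (log2 0.73, 95% interval 0.68 to 0.78). The next was chromosome 5 (0.30), and the lowest was chromosome 7 (-0.70). The FRA1 ratio of chromosome 18 was 0.83, and FRA1 minus IgG was 0.10 (0.053 to 0.15), while over the 22 autosomes this difference ran from -0.24 on chromosome 20 to 0.315 on chromosome 4. Chromosome 18 therefore stood apart by its IgG and FRA1 shares and not by the difference between them.

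**Figure D2:**
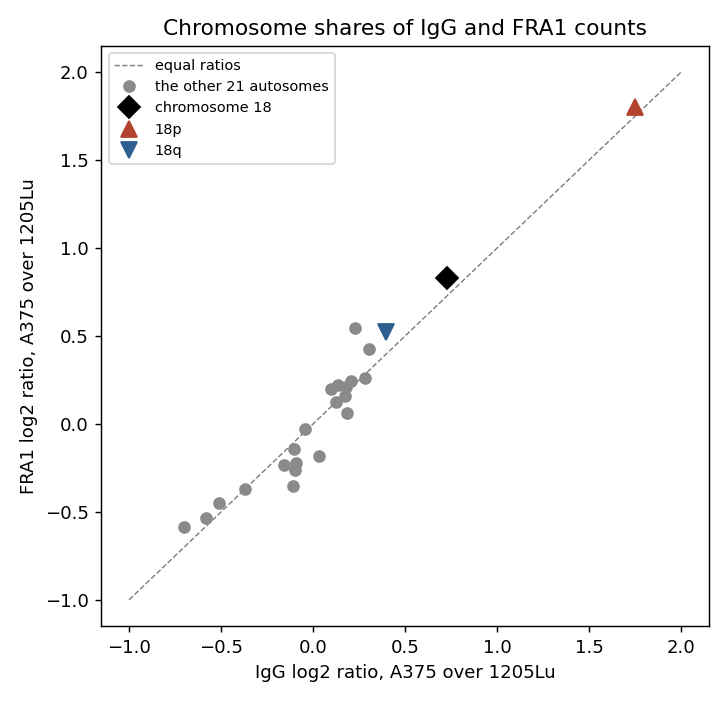
Each point is an autosome, with the log2 ratio of its share of counts (A375 over 1205Lu) for IgG on the x axis and FRA1 on the y axis. Chromosome 18 (0.73, 0.83) and 18p (1.75, 1.8) lie at the upper end and close to the dashed line of equal ratios.

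Along the chromosome the IgG ratio changed in a step between the arms. In windows of 5 Mb with at least 10 peaks, the 3 windows of 18p had IgG log2 ratios of 1.64, 1.91 and 1.70. The first 18q window, between 20 and 25 Mb, was at 0.15 (-0.0074 to 0.32), and the 12 windows of 18q lay between 0.12 and 0.66. None of the 536 windows of the other autosomes reached the lowest 18p window, their highest value being 1.51 and their 5th to 95th percentile -0.88 to 0.81. FRA1 ratios of the 3 18p windows were 1.70, 2.02 and 1.70, and FRA1 minus IgG there was 0.062, 0.11 and 0.0012, with an interval that held 0 in each window. For FRA1, unlike IgG, 13 windows of the other autosomes were at or above the lowest 18p window, the highest at 2.57.

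Several 18q windows departed from their IgG ratio. Between 65 and 70 Mb the FRA1 ratio was 1.6 ± 0.24 (SD) against 0.66 for IgG, a difference of 0.94 (lower bound 0.66 from the IgG interval). Between 55 and 60 Mb the difference was 0.64 (lower bound 0.51), and between 25 and 30 Mb it was 0.46 (lower bound 0.24). The window from 75 to 80 Mb went the other way, with a FRA1 ratio of -0.42 ± 0.054 against an IgG ratio of 0.14, a difference of -0.56. In windows of 10 Mb these departures were smaller, with 0.456 from 60 to 70 Mb and -0.171 from 70 to 80 Mb. Over the other autosomes the middle 90% of windows lay between -0.52 and 0.94 in this difference, so that the window from 65 to 70 Mb sat at the upper end of that range and the window from 75 to 80 Mb just below its lower end. Across the 15 windows of the chromosome the Pearson correlation of the IgG and FRA1 ratios was 0.85, and across the 12 windows of 18q it was 0.73. Neighbouring windows share the libraries and are not independent, so no p is given.

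**Figure D3:**
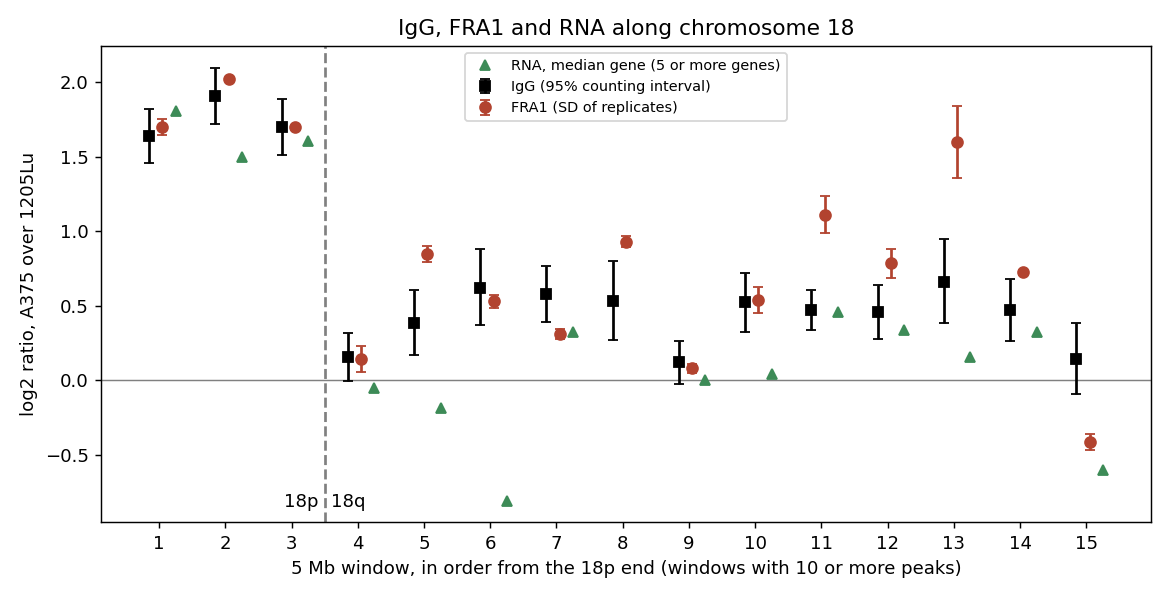
Log2 ratios (A375 over 1205Lu) of IgG with 95% counting intervals, of FRA1 with the SD of replicates, and of the median protein-coding RNA with si-NT, for 15 windows of 5 Mb in order from the 18p end. The 3 windows of 18p lie between 1.5 and 2.02 in all 3 measures, and the 18q windows lie lower in IgG (0.12 to 0.66), with FRA1 parted from IgG in window 13 (1.6 against 0.66).

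Peak by peak, most 18p peaks had more FRA1 signal in A375. In the edgeR fit over 45588 peaks that passed the filter on low counts, with an adjusted p under 0.05 as the call, 283 of the 361 18p peaks were tested. Of these, 225 (79.5%) were called higher in A375 and 15 (5.30%) higher in 1205Lu, where 34.5% and 28.1% of all tested peaks were called. The median log2 fold change was 2.12 on 18p and 0.27 over all tested peaks, and values below are to be read against that shift. On 18q, 850 of 1066 peaks were tested, 409 (48.1%) were called higher in A375 and 166 (19.5%) higher in 1205Lu, with a median of 0.94. The contrast is the one that singled the chromosome out, so these counts describe it. Of the tested peaks, 8 on 18p and 2 on 18q had no FRA1 count in 1205Lu, and setting their fold change to a bound left both medians as they were. The median 18p peak had a mean FRA1 count of 1.67 in 1205Lu and 46.7 in A375, so 18p peaks passed the filter mostly through A375, where they are high. The 18p values thus depend on the filter. With 1205Lu FRA1 replicates 2 and 3 summed, 349 18p peaks were tested, with a median of 1.94. Then 69.1% were called higher in A375 and 5.16% higher in 1205Lu, beside 29.0% and 24.3% of all tested peaks.

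When the IgG ratio of each peak's own 5 Mb window was entered as an offset, the 18p median came close to that of all peaks. The shares of 18p peaks called were lower than those of all peaks in both directions. Of the 283 tested 18p peaks 162 were not called, beside 18881 of all 45588. The offset takes out the window IgG ratios given above, so this move is not a separate result. Of the 283 18p peaks, 73 (25.8%) were then called higher in A375 and 48 (17.0%) higher in 1205Lu, where 32.1% and 26.5% of all tested peaks were called. The 18p median was 0.34, beside 0.24 over all peaks, and 60.3% of the called 18p peaks were higher in A375, beside 54.7% of all called peaks. Of the 225 18p peaks called higher in A375 without the offset, 73 kept that call, 142 were no longer called and 10 were called higher in 1205Lu. On 18q, 317 peaks (37.3%) were called higher in A375 and 191 (22.5%) higher in 1205Lu with the offset, the median was 0.52, and 317 of the 409 earlier calls remained. The offset treats the IgG ratio as known without error, which the fit does not carry into its p-values.

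**Figure D4:**
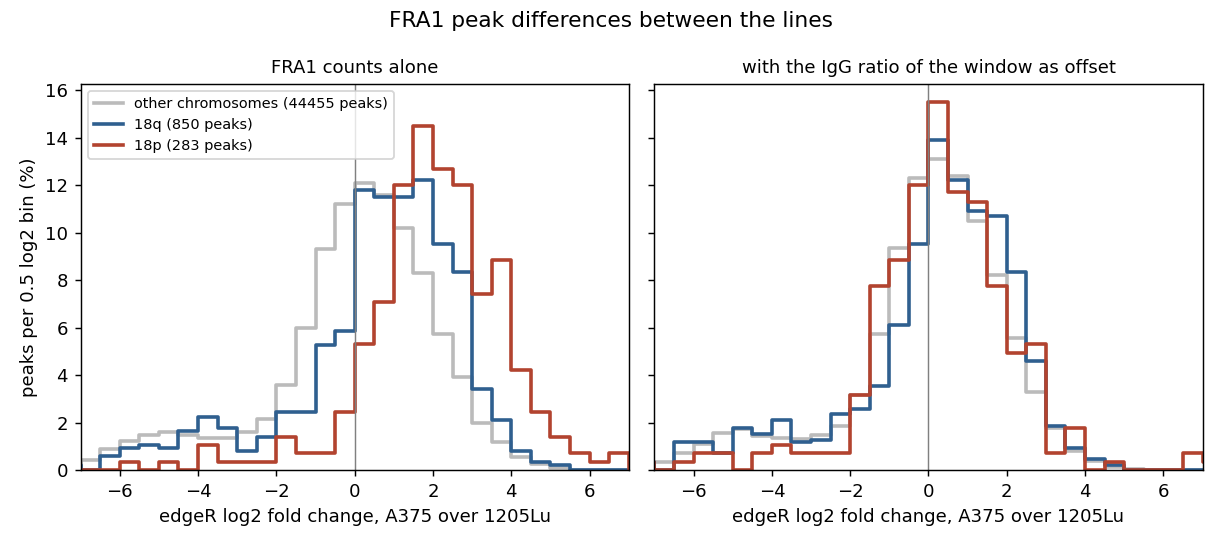
Distribution of edgeR log2 fold changes (A375 over 1205Lu) of tested FRA1 peaks, in percent of peaks per bin of 0.5, from the FRA1 counts alone (left) and with the IgG ratio of the window as offset (right). The median of 18p moves from 2.12 to 0.34, beside a move from 0.27 to 0.24 over all peaks.

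After the offset, promoter and intergenic peaks differed in their medians on both arms, given without a test. Among promoter peaks of 18p, 21 of 103 (20.4%) were called higher in A375 and 23 (22.3%) higher in 1205Lu, with a median of 0.0022, where 22.6% and 29.9% of all promoter peaks were called. Among its intergenic peaks 23 of 72 (31.9%) were called higher in A375 and 4 (5.56%) higher in 1205Lu, with a median of 0.85, where 38.5% and 22.7% of all intergenic peaks were called. On 18q the median was 0.12 for 221 promoter peaks and 0.97 for 310 intergenic peaks, of which 150 (48.4%) were called higher in A375 and 51 (16.5%) higher in 1205Lu. Over all chromosomes the medians were -0.16 for promoter peaks and 0.60 for intergenic peaks, so both arms shared the order seen elsewhere.

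By a rule on counts, a peak stood over IgG in a line when the smallest of its FRA1 counts reached 10 and also reached 4 × (IgG + 1). This holds FRA1 and IgG of the same line against each other. In A375, 204 18p peaks (56.5%) and 619 18q peaks (58.1%) met it, beside 57.4% of all peaks. In 1205Lu, 19 18p peaks (5.26%, Wilson 95% interval 3.39 to 8.07%) and 78 18q peaks (7.32%, 5.90 to 9.04%) met it, beside 7.09% of all peaks. The share of chromosome 18 peaks over IgG was therefore near that of all peaks in each line. Only 28 18p peaks (7.76%) reached 10 counts in all 3 1205Lu FRA1 libraries, beside 24.2% of all peaks, but without that minimum 22 18p peaks met the rest of the rule in place of 19. With A375 libraries thinned to the totals of 1205Lu, 21 18p peaks (5.82%) and 54 18q peaks (5.07%) met the rule in A375, beside 5.25% of all peaks. With every library scaled to the same total the order of the lines turned (16 peaks of the chromosome in A375 and 59 in 1205Lu). The share over all peaks is not given for that scaling. The larger number in A375 thus cannot be told apart from its depth. Both lines met the rule at 17 18p and 49 18q peaks.

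The DLGAP1 peak on 18p shows how the reading of a single peak changed. This peak (chr18:3622065-3625843) lies in an intron of DLGAP1, a scaffold gene of synapses. It had 1452, 2217 and 1928 FRA1 counts and 67 IgG counts in A375, and 90, 200 and 147 FRA1 counts and 7 IgG counts in 1205Lu. Per 1e6 counts in peaks, A375 had 417 to 453 and 1205Lu 154 to 223, without overlap. The edgeR log2 fold change was 1.01 (SE 0.17) and became -0.63 with the IgG offset. Both values were called. A neighbouring peak (chr18:3602568-3606243), which had the most IgG counts of the chromosome in A375 (72, against 17 in 1205Lu), moved likewise from 0.82 (SE 0.17) to -0.82.

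The PTPRM locus of 18p held peaks of both kinds. PTPRM encodes a receptor protein tyrosine phosphatase that takes part in contacts between cells. At the peak printed above as present in both lines (chr18:8116020-8117135), A375 had 184, 318 and 267 FRA1 counts with 8 IgG counts, and 1205Lu had 12, 27 and 24 with 1 IgG count. Its fold change was 0.92 (SE 0.21) and turned to -0.99 with the offset. At a peak by another internal start (chr18:8124382-8125761), A375 had 147, 229 and 190 counts and 1205Lu had 2, 0 and 1, and the fold change was 4.83 (SE 0.45) and still 2.95 with the offset. At the intron peak printed above (chr18:7578969-7579992), A375 had 92, 171 and 129 FRA1 counts and 10 IgG counts and 1205Lu had 0, 0 and 0 with 2 IgG counts. Taking 3 counts over the 1205Lu group as the limit, the share was at least 22.9-fold higher in A375.

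The peaks by starts of the listed genes on 18p split in the same way. At the start of MYL12A (chr18:3247065-3247842), one of 2 genes for the regulatory light chain of non-muscle myosin, A375 had 196, 268 and 234 FRA1 counts and 1205Lu 6, 12 and 7, with 25 and 1 IgG counts. Its fold change of 2.12 (SE 0.26) became 0.48, no longer called, with the offset. A second peak by a start of the same gene (chr18:3250115-3252246) had 383, 760 and 611 counts in A375 and 6, 4 and 5 in 1205Lu, and its fold change of 4.15 (SE 0.29) stayed at 2.52. At LAMA1, the laminin alpha 1 chain, the peak at chr18:6960282-6961842 had 217, 352 and 254 counts in A375 and 5, 1 and 2 in 1205Lu, and its fold change went from 3.98 (SE 0.35) to 2.08. The peak at the start of TYMS was not called without or with the offset (0.41 and -1.22). That of NDC80 was not called without it (0.56) and was called lower in A375 with it (-1.07). That of YES1 was called at 1.55 without the offset by edgeR, though not by DESeq2, and was not called at -0.077 with it.

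On 18q the largest differences kept their direction and call with the offset. The peak in an intron of RBBP8, a DNA repair gene (chr18:22843945-22844932), had 163, 280 and 207 FRA1 counts in A375 and none in 1205Lu, while the IgG counts were 9 and 7. Its share was at least 37.9-fold higher in A375, again with 3 counts over the group as the limit. The intergenic peak at chr18:73101640-73102427, whose nearest protein-coding start is NETO1 at 233494 bp, had 91, 172 and 117 counts in A375 and none in 1205Lu. It was at least 22.2-fold higher in A375. In the other direction, an intronic peak (chr18:61727241-61727867) whose nearest protein-coding start is RNF152, at 160987 bp, had 0, 1 and 3 counts in A375 and 30, 86 and 60 in 1205Lu. Its log2 fold change was -7.92 (SE 0.39). The GALR1 side peak printed above (chr18:77522054-77522644), 268314 bp from that start, had 3, 2 and 5 against 44, 103 and 80 counts (-7.09, SE 0.30). A peak in an intron of NFATC1, a transcription factor of calcium signalling (chr18:79476100-79477326), had 6, 2 and 2 against 70, 94 and 57 counts (-7.06, SE 0.30), while NFATC1 RNA was also lower in A375 (-2.36, adjusted p 5.2e-16).

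Among the strongest 18q peaks over IgG in both lines was that at a start of NEDD4L, a ubiquitin ligase (chr18:58223719-58225020), with 679, 1100 and 917 counts in A375 and 105, 207 and 183 in 1205Lu. It was not called (-0.23, SE 0.16), but was called lower in A375 with the offset (-0.70) and also without 1205Lu FRA1 replicate 1 (-0.58). An intergenic peak with SOCS6 as its nearest start (chr18:70357464-70358712) had 919, 1276 and 1176 counts against 42, 63 and 53 and was higher in A375 without and with the offset (1.74 and 1.27). The longest peak, at the start of MALT1 (chr18:58667609-58671653), had 483, 755 and 575 against 25, 25 and 14 FRA1 counts, and IgG counts of 46 and 19. Its fold change was 2.13, and 1.66 with the offset.

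RNA gives a readout of the chromosome that the choice of peaks did not use. With si-NT, 55 protein-coding genes of 18p were tested by edgeR (call: adjusted p under 0.05 and a log2 fold change beyond 1 in either direction), and 40 (72.7%) were called higher and 6 (10.9%) lower in A375, where 18.4% and 20.2% of all 14288 tested protein-coding genes were called. The median 18p gene was 3.34 times higher in A375 (log2 1.74, quartiles 0.72 and 2.20), beside a median log2 fold change of 0.024 over all genes. On 18q, 32 of 151 genes were called higher and 32 lower (21.2% each), with a median of 0.089 (quartiles -0.71 and 0.80). In bulk samples, fewer cells of a type and less RNA per cell cannot be told apart. The part of DNA copy number in the RNA difference was not tested.

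The shift was present in each set of samples. The 18p genes took 0.431% to 0.433% of the protein-coding counts of A375 with si-NT, and 0.155% in each of the 3 such samples of 1205Lu. With si-FRA1 they took 0.451% to 0.458% in A375 and 0.155% to 0.157% in 1205Lu, and the median log2 ratio between the lines was 1.67 (39 genes called higher and 6 lower of 55). The median over genes was 1.81, 1.5 and 1.61 in the 3 windows of 18p and -0.052 in the first window of 18q. On 18p the IgG ratio was 3.36, the FRA1 ratio 3.49 and the ratio of the median gene 3.34, and on 18q they were 1.32, 1.43 and 1.06. The first 2 are ratios of summed counts and the third is a median over genes, so they are unlike measures. As medians on the log2 scale, 18p gave 1.3 for IgG and 1.92 for FRA1 over peaks. Its RNA median over genes was 1.74 by edgeR and 1.6 by DESeq2. How close the 3 lie thus depends on the summary.

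**Figure D5:**
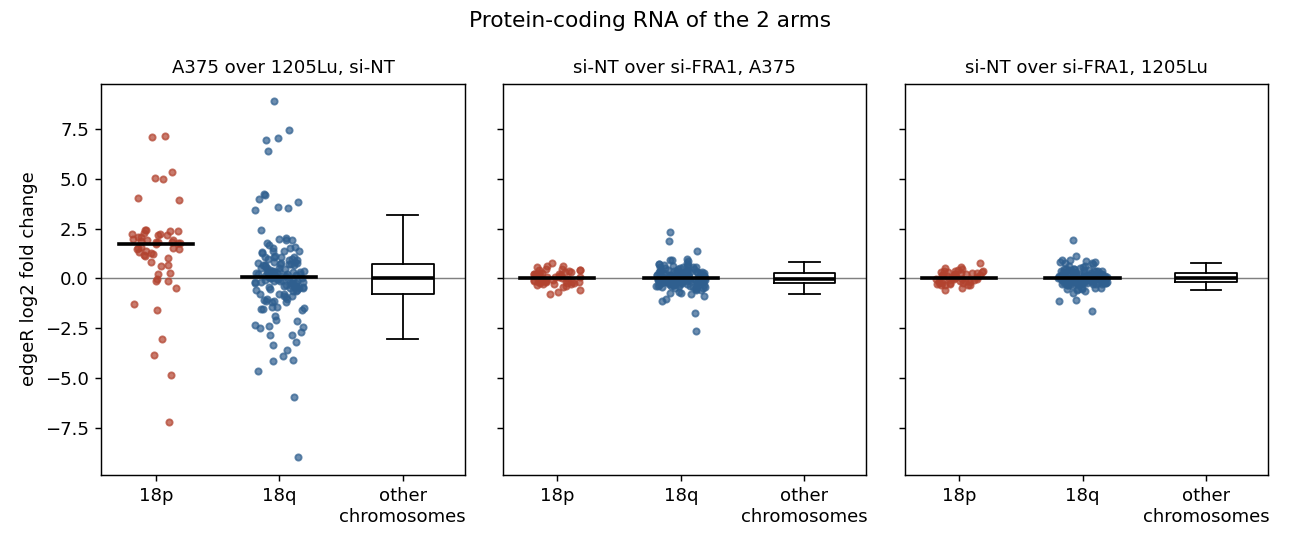
Each point is a gene of 18p or 18q with its edgeR log2 fold change, black lines are medians, and the box of the other chromosomes gives quartiles with whiskers at the 5th and 95th percentile. The 18p median is 1.74 between the lines (left) and near 0 for si-NT over si-FRA1 in A375 (0.018) and 1205Lu (0.027).

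The genes of cell division on 18p followed the median of the arm. TYMS, the thymidylate synthase, was at 187, 181 and 181 CPM in A375 and 53.5, 58.2 and 52.8 CPM in 1205Lu with si-NT (log2 fold change 1.74, SE 0.037, adjusted p 3.6e-19). NDC80, a kinetochore subunit, was 2.1 higher on the log2 scale and YES1, a SRC family kinase, 1.5 higher (adjusted p 2.9e-16 and 3.5e-17). Of the 8 listed genes of cell division and DNA synthesis, these 3 were called higher and they are the 3 on 18p. On that arm 72.7% of genes were called higher, beside 18.4% of all genes. CABLES1, RBBP8, SKA1, POLI and HAUS1 on 18q were not called.

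Of the 10 laminin, adhesion and cytoskeleton genes, 7 were called higher in A375 and 1 lower, beside 18.4% and 20.2% of all genes. All 4 on 18p were called higher, an arm on which 72.7% of genes were, and 3 of the 6 on 18q. On 18p, MYL12A was at 177 to 184 CPM against 46.9 to 47.7 CPM (1.92, adjusted p 1.6e-20) and MYL12B at 398 to 401 against 109 to 111 CPM (1.86, adjusted p 1.5e-22). These 2 genes are near-identical, so that reads could be split between them. PTPRM was at 231, 235 and 248 CPM in A375 and 7.24, 7.81 and 7.67 CPM in 1205Lu (4.98, SE 0.047, adjusted p 1.1e-24), and LAMA1 at 38.3 to 43.0 against 1.74 to 3.15 CPM (4.05, SE 0.12, adjusted p 7.8e-17), both well beyond the median of the arm. On 18q, LAMA3 (3.82), FHOD3 (1.76) and PARD6G (1.38) were called higher, MYO5B lower (-2.68), and ROCK1 (-0.22) and MAPRE2 (0.74) were not called.

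Of the 6 TGF-beta and SMAD genes, 1 was called higher in A375 and 1 lower, beside 18.4% and 20.2% of all genes. TWSG1 on 18p, a modulator of BMP signalling, was called higher (1.04, edgeR adjusted p 4.3e-14). SMAD7 on 18q, the inhibitory SMAD, was called lower (-1.05, edgeR adjusted p 0.000166). DESeq2 gave -0.99 for SMAD7, inside the fold limit. TGIF1, a SMAD corepressor on 18p, ran against its arm, with 41.8 to 44.4 CPM in A375 and 46.0 to 49.7 CPM in 1205Lu (-0.14, adjusted p 0.0104, not called). SMAD2 (0.36), SMAD4 (0.30) and NEDD4L (0.79) were not called. Of the 11 cadherin and desmosome genes, all on 18q, 7 were tested and 4 were called higher, beside 21.2% of the 18q genes and 18.4% of all genes. CDH2, the N-cadherin gene, was at 256, 260 and 260 CPM in A375 and 66.7, 70.7 and 69.3 CPM in 1205Lu (1.91, adjusted p 3.4e-21), and CDH19, CDH20 and DSC3 were lowly expressed (1.94, 3.55 and 4.22).

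Of the 7 survival, death and protease inhibitor genes, 5 were tested, all on 18q, where 21.2% of genes were called higher in A375 and 21.2% lower. MALT1, a protease of NF-kappaB signalling (1.54), and PHLPP1, a phosphatase of AKT (1.25), were called higher in A375 and SERPINB8 lower (-1.15), while BCL2 (0.33) and PMAIP1 (0.95) were not called. Of the 12 transcription and chromatin genes, 4 were called lower in A375 and the other 8 were not called, beside 20.2% of all genes and 21.2% of the 18q genes called lower. The 4 were GATA6 (-3.22), SETBP1 (-4.65), NFATC1 (-2.36) and ZBTB7C (-2.13), all on 18q. SMCHD1, a chromatin silencing factor and the only 18p gene of this list, was at 179 to 198 CPM against 116 to 124 CPM (0.65, adjusted p 2.9e-12, not called).

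Single genes of 18p departed from the arm in both directions. PIEZO2, a mechanically gated channel, was at 1.45, 1.32 and 0.608 CPM in A375 and 171, 168 and 169 CPM in 1205Lu (-7.23, SE 0.087, adjusted p 4.1e-23). POTEC, of a family of ankyrin repeat genes with near-identical copies, was at 33.2 to 36.9 CPM in A375 and 0.168 to 0.307 CPM in 1205Lu (7.17, adjusted p 4.2e-19). DLGAP1 holds the peak with the most FRA1 among the peaks of the chromosome that stood over IgG in both lines. Its RNA was lower in A375 (2.7 against 6.73 CPM on average, -1.31, edgeR adjusted p 1.9e-06). DLGAP1 RNA was looked up after the peak was seen. On 18q the largest differences were those of SERPINB7 (8.89) and CCDC102B (7.47), higher in A375, and of ST8SIA5, a sialyltransferase (-8.97), and SKOR2 (-5.94), higher in 1205Lu. SERPINB7 had 639 to 704 counts in A375 and 0 to 3 counts in 1205Lu, and ST8SIA5 had 20 to 25 counts in A375 and 9788 to 13272 in 1205Lu.

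Silencing FRA1 moved few genes of the chromosome beyond the fold limit. A positive fold change (si-NT over si-FRA1) here means less RNA after silencing. In A375, 3 of 199 tested genes were called down and 3 up after silencing (1.51% each), where 2.51% and 2.78% of all tested protein-coding genes were called. In 1205Lu, 2 of 192 were called down and 3 up (1.04% and 1.56%), where 1.86% and 1.11% of all were called. All of the called genes lay on 18q. On 18p the edgeR count was 0 of 54 in A375 and 0 of 50 in 1205Lu, with edgeR fold changes between -0.78 and 0.78. DESeq2 also called 0 of 65 in both lines. At an adjusted p under 0.05 without a fold limit, edgeR counted 32 of the 54 genes in A375 and 20 of the 50 in 1205Lu. Over all tested protein-coding genes it counted 7845 of 13598 and 6449 of 13728. At an unadjusted p under 0.05, edgeR counted 33 and 22 on 18p and DESeq2 33 and 23 (of 65), without a count over all genes at that limit.

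In A375, CCBE1, a secreted factor of lymphatic growth, went from 28.2, 28.0 and 29.2 CPM to 8.25, 7.16 and 7.33 CPM after silencing (1.90, adjusted p 2.4e-15). SERPINB7 was at 27.3 to 29.6 against 10.5 to 11.8 CPM (1.39, adjusted p 2.7e-13). SERPINB4 was also called (2.33, adjusted p 0.00165), with at most 18 counts in any A375 sample and a near-identical neighbour gene that makes its counts uncertain. Higher after silencing were CCDC102B (-1.02, adjusted p 1.5e-16), CBLN2 (-2.63, adjusted p 2.1e-09) and SMAD7. CCDC102B fell inside the fold limit without A375 si-NT replicate 1 (-0.984) or si-FRA1 replicate 3 (-0.990).

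SMAD7 was the only gene of the chromosome called in both lines. In A375 it went from 2.15, 1.73 and 2.74 CPM to 7.47, 6.32 and 8.64 CPM after silencing (-1.76, adjusted p 1.2e-08), and in 1205Lu from 4.78, 4.05 and 3.82 to 9.90, 9.22 and 7.69 CPM (-1.08, adjusted p 5.9e-06). The groups did not overlap in either line. A peak at one of its starts (chr18:48942340-48943228) had 115, 187 and 164 FRA1 counts with 8 IgG counts in A375 and 7, 13 and 5 with 5 IgG counts in 1205Lu. It was the only one of 3 peaks within 3 kb of a SMAD7 start to stand over IgG, and did so in A375 only. It held no FOS/JUN sequence. In 1205Lu, SLC39A6, a zinc transporter, went from 141 to 149 CPM down to 63.5 to 69.3 CPM (1.12, adjusted p 5.1e-15), and CABLES1, an adaptor of cyclin-dependent kinases, from 19.2 to 21.4 up to 42.3 to 45.2 CPM (-1.14, adjusted p 6.7e-12). GALR1, a galanin receptor (1.92, adjusted p 0.00113), and AC091551.1 (-1.64, adjusted p 0.0241) rested on 34 counts or fewer per sample for GALR1 and at most 1.2 CPM for AC091551.1. The AC091551.1 call was lost without 1205Lu si-FRA1 replicate 1 (adjusted p 0.107), si-FRA1 replicate 2 (0.0952) or si-NT replicate 1 (0.113), by edgeR.

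The genes that moved with silencing were set beside promoter peaks over IgG, without a test. In A375, 83 tested genes of the chromosome had such a peak within 3 kb of a start, and 4 of them (4.82%) were called, beside 2 of 116 without one (1.72%). Over all chromosomes these shares were 5.12% and 5.38%. In 1205Lu, 16 genes had such a peak, and the 5 called genes were all among the 176 without one. Over all chromosomes in 1205Lu, 13 of 666 genes with such a peak were called down and 5 up. Without one, 243 of 13062 were called down and 147 up. The 16 genes are too few to tell these groups apart on chromosome 18. Of the 6 gene lists, SMAD7 was the only member called in A375, and SMAD7 and CABLES1 were the only members called in 1205Lu.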

How the data were processed

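Cut&Run and RNA-seq of A375 and 1205Lu cells were used in 8 and 12 samples. The authors trimmed adapters (cutadapt 1.8.1), aligned Cut&Run reads to GRCh38 with Bowtie2 2.4.1, called peaks with MACS2 and joined them, and they deposited raw counts per consensus peak. Whether replicates were pooled for peak calling is not given in the sources used here. For RNA-seq the authors used STAR 2.7.7a and RSEM 1.3.0, and deposited expected counts, which hold whole numbers and are not normalized. RNA totals ran from 20573412 to 32518903 counts per sample.

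The members, the 6 gene lists (54 genes) and the tests were chosen with earlier results of these data known. Shares are of all peak counts, with exact binomial intervals, and the interval of an IgG ratio is a conditional binomial one (scipy 1.17.1, Python 3.11.15). Peaks and genes were tested with edgeR 4.0.16 in R 4.3.3 (filterByExpr, TMM, quasi-likelihood test, Benjamini-Hochberg over all features tested). CPM uses TMM library sizes. The offset is the log ratio of IgG shares in the 5 Mb window. Positions and starts are from GENCODE v44, in which 58517 of 58870 genes were found, and sequences are from the GRCh38 reference. X and Y were not used as background.

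Named genes were those of the lists and, per RNA comparison, the 3 largest log2 fold changes in each direction of called genes without overlap between the groups and with a mean of 100 counts or more. Named peaks were the 3 with the most FRA1 over IgG in both lines, the 3 largest fold changes in each direction (at least 30 counts on average in the line with more), the 3 with the most IgG, and peaks within 3 kb of a listed gene's start. Genes called after silencing, DLGAP1 RNA and the pigment cell genes were added after their values were seen. The fits were tested on simulated counts. Alternatives were DESeq2 1.42.0, other scaling, no filter, other limits over IgG, thinning, 10 Mb windows, a replicate block and each sample left out. Summing 1205Lu replicates 2 and 3, and the si-FRA1 samples for the comparison between lines, were chosen after the data were seen.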

Additional observations from a re-analysis of the deposited data

Results flagged for a closer look

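The effect of silencing was compared between the lines by the interaction of line and siRNA in edgeR over all 12 RNA samples (adjusted p under 0.05, no fold limit). It passed for 23 of 55 protein-coding genes of 18p (41.8%) and 65 of 153 of 18q (42.5%), beside 38.7% of all 14844. Values below are A375 minus 1205Lu on the log2 scale of si-NT over si-FRA1.

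Of the 10 genes called after silencing in a line, 7 passed, all on 18q. They were CCBE1 at 2.16 (adjusted p 0.000143), CABLES1 at 1.17 (8.9e-09), CBLN2 at -2.78 (0.000858), GALR1 at -2.54 (0.0158), CCDC102B at -1.39 (0.0262), SMAD7 at -0.675 (0.0357) and SLC39A6 at -0.380 (2.5e-06). SMAD7 and SLC39A6 moved the same way in both lines and differed in size. CCBE1, CCDC102B and CBLN2 had at most 15 counts in any 1205Lu sample, and GALR1 at most 15 in any A375 sample.

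Of the 60 named genes tested 30 passed, beside 38.7% of all genes tested. Besides the 7 above, 23 other named genes passed. On 18p they were POTEC at 1.45 (adjusted p 0.0253), LAMA1 at 0.601 (0.0144), TGIF1 at 0.294 (0.000593), SMCHD1 at 0.221 (0.000535), MYL12A at -0.748 (1.6e-12) and MYL12B at -0.562 (5.9e-12). POTEC had at most 14 counts in any 1205Lu sample. On 18q the positive differences were SERPINB8 at 1.22 (3.2e-11), NFATC1 at 1.18 (8.8e-09), NEDD4L at 0.908 (5.3e-15), GATA6 at 0.850, ONECUT2 at 0.813, PHLPP1 at 0.629, SMAD4 at 0.415, TAF4B at 0.392, MBD1 at 0.278 and MBD2 at 0.197. The negative ones were HAUS1 at -0.676, SETBP1 at -0.668, TSHZ1 at -0.407, DSG2 at -0.327, MALT1 at -0.208, SMAD2 at -0.136 and CDH2 at -0.128. MYL12A and MYL12B RNA was higher after silencing in A375 and lower in 1205Lu.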

How the results depend on the processing

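The shares of the chromosome kept their direction in every alternative run. Taken only over peaks that stood over IgG in neither line, the IgG log2 ratio was 0.664 for chromosome 18 and 0.316 for 18q, and the FRA1 ratio 0.776, 1.85 (18p) and 0.457 (18q). Without the 1% of peaks with the most counts, FRA1 was 0.799, 1.86 (18p) and 0.498 (18q). Relative to the median autosome, IgG was 0.664 and 0.332 (18q), FRA1 0.813 and 0.503 (18q), and their difference 0.149 for the chromosome. As a median over peaks, IgG was 0.449, 1.3 (18p) and 0.221 (18q), FRA1 1.13, 1.92 and 0.849, and their difference 0.68, 0.618 and 0.628. The difference between FRA1 and IgG thus depends on the summary, and IgG counts per peak are low.

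With the IgG offset, 390 peaks of the chromosome were called higher in A375, with 73 on 18p, and 48 on 18p higher in 1205Lu. Among named 18p peaks called without the offset, the fold change turned for 6, to -0.627 and -0.821 (DLGAP1), -0.0396 (LAMA1), -0.391 and -0.987 (PTPRM) and -0.0767 (YES1). Named 18p peaks not called without it also turned, as at TYMS (0.409 to -1.22) and at a TGIF1 peak (0.449 to -1.19). Of the 1427 peaks, 158 stood over IgG in 1205Lu and 123 in both lines at 2 times. At 8 times, 385 did so in A375, 31 in 1205Lu (9 on 18p) and 16 in both. The share over all peaks is not given at these limits. With equal totals, peaks over IgG numbered 16 in A375, 59 in 1205Lu and 3 in both, also without that share. With A375 thinned they numbered 75 in A375 (5.26%, beside 5.25% of all peaks) and 22 in both. Leaving out each replicate gave 97 to 154 in 1205Lu, the highest without 1205Lu FRA1 replicate 1.

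The 18p RNA median was 1.6 by DESeq2 and 1.85 over all genes. The 18q median was -0.0731 by DESeq2, -0.000349 without a filter, 0.128 with upper-quartile scaling, 0.127 over all genes, 0.144 in the si-FRA1 samples and 0.0586 to 0.0894 with a replicate left out, so its sign is not settled. Without a fold limit 115 genes were called higher and 68 lower in A375, 183 of the 206 tested. Over all chromosomes 11830 of 14288 protein-coding genes passed that limit. Over all genes of the chromosome, not only protein-coding ones, 128 were called higher, without a share over all chromosomes. For silencing, counts without a fold limit were 53 down and 62 up of 199 genes in A375 and 40 and 43 of 192 in 1205Lu. Over all chromosomes 7845 of 13598 and 6449 of 13728 protein-coding genes passed. Genes called down numbered 6 in A375 over all genes and 5 in 1205Lu without a filter. They ranged from 3 to 5 in A375 (5 without A375 si-NT replicate 3) and from 2 to 4 in 1205Lu (4 without 1205Lu si-NT replicate 1). The FOS/JUN sequence was anywhere in 60.8% of the peaks. The cause of these moves was not tested.

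Same-numbered samples did not deviate together (correlations of -0.109 to 0.0969), so the numbers were not taken as pairs. With a replicate block, 605 peaks were called higher in A375 and 174 higher in 1205Lu, 71 and 37 genes differed between the lines with medians of 1.74 (18p) and 0.0903 (18q), and silencing gave 3 down and 4 up in A375 and 2 and 3 in 1205Lu. The 6 libraries as deposited are the fit reported. With 1205Lu FRA1 replicates 2 and 3 summed, 652 and 186 peaks were called. For single peaks and genes, 2631 alternatives left the call as it was, 57 lost and 44 gained a call, and 6 turned the direction of a called peak. Peaks not called in the fit reported could also change sign, as that of TYMS did with the IgG offset (0.409 to -1.22). 1205Lu depth limits single peaks.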
